A study of Mus musculus with 3 samples.

Results

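The retained introns of the mouse hippocampus described here are the 209 introns that the splicing tables of the series list as either removed from or kept in the mature RNA. They were found by joining the retained intron tables of 3 pairwise comparisons on gene symbol, chromosome, strand and every coordinate. They lie in 187 genes and make up 209 of the 8727 splicing events of all 5 event types in the series. Of these introns, 143 were listed in all 3 tables, 55 in a pair of tables and 11 in a single table, and 198 had counts in all 3 libraries. RNA came from the hippocampus of C57BL/6J wild-type mice aged 10 weeks, with 1 library per group. CUG10 + vehicle mice were injected with vehicle and with AAV9, an adeno-associated viral vector, carrying 10 CUG repeats. CUG300 + vehicle mice received AAV9 with 300 CUG repeats and vehicle, and CUG300 + CWG-cPIP mice received the 300-repeat virus with CWG-cPIP, a cyclic pyrrole-imidazole polyamide that binds CAG/CTG repeat DNA. By the study's methods the repeats sit behind Egfp in the viral transcript and the virus was placed in the CA1 region on both sides. All groups carried virus, and no library came from an uninjected mouse. With 1 library per group there is no measure of the spread between mice, and every interval below covers counting error only.

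Most introns are removed from a transcript before it leaves the nucleus. An intron that stays in place can hold the RNA in the nucleus, bring a stop codon into the reading frame and expose the RNA to decay, or form part of an alternative last exon or untranslated region (UTR). Neurons keep many such introns, and in myotonic dystrophy type 1, the disease that expanded CUG repeats cause, splicing regulators of the MBNL and CELF families are disturbed. None of the introns lay in a gene of a short chosen list of myotonic dystrophy and MBNL targets of brain and muscle. The share of all events in these genes was not computed, so this absence is not a result about retained introns.

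The ends of introns on which the comparisons turn are shown so that the positions can be recognised. Sequences were read from GENCODE M21 transcripts whose exon spans the intron (build mm10), and 195 of the 209 introns had such a transcript. Each line gives the last 3 exon bases with the first 6 intron bases, or the last 20 intron bases with the first 3 exon bases, 5′ to 3′ on the transcript strand. Capitals mark the first and last bases of the intron.
Qsox2, chr2:26209794-26211273, minus strand, 5′ splice site: ctgGTgagt
Qsox2, 3′ splice site: ctcctttcatcacatggcAGgat
Znrf1, chr8:111621688-111622798, plus strand, 5′ splice site: aagGTgagc
Znrf1, 3′ splice site: acttcttccgacccacacAGgga
Glo1, chr17:30593075-30594114, minus strand, 5′ splice site: gagGTatgg
Glo1, 3′ splice site: gtggtcttccctgctgacAGgat
Dnajb2, chr1:75243662-75244793, plus strand, 5′ splice site: cagGTgggc
Dnajb2, 3′ splice site: cacccctgctctctccccAGatg
Med22, chr2:26905994-26908092, minus strand, 5′ splice site: cagGTacaa
Med22, 3′ splice site: ggtttcttgtggtggcaaAGctc
Caly, chr7:140070034-140070311, minus strand, 5′ splice site: gggGTaagt
Caly, 3′ splice site: tgactcttgtatcttcacAGcat

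The Tardbp introns show how members can share an end. The introns of 968, 959 and 941 nt share a 3′ splice site and differ in the 5′ splice site, which lies 0, 9 and 27 nt into the longest of them.
Tardbp, 968 nt, chr4:148617706-148618673, minus strand, 5′ splice site: gtgGTaatc
Tardbp, 959 nt, chr4:148617706-148618664, minus strand, 5′ splice site: cagGTggct
Tardbp, 941 nt, chr4:148617706-148618646, minus strand, 5′ splice site: aggGTgggt
Tardbp, shared 3′ splice site: ccttcatttaatctctgcAGttc

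The shortest member was the 26-nt intron of Xbp1, a transcription factor of the unfolded protein response. This intron is cut by the endoplasmic reticulum sensor IRE1 rather than by the spliceosome, and its ends are CA and AG.
Xbp1, chr11:5524282-5524307, plus strand, whole intron: CActcagactatgtgcacctctgcAG

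Because CWG-cPIP binds CAG/CTG repeats, the introns were also searched for CTGCTGCTG and CAGCAGCAG on the transcript strand, each of which is the other on the opposite strand. CTGCTGCTG occurred in 6 of 195 introns (3.08%) and CAGCAGCAG in 3 (1.54%), but 2 of the first were 1 run in overlapping Cdh8 introns, and 2 of the second 1 run in overlapping Clasrp introns. In all annotated mouse introns with an annotated retained form, weighted to the lengths of the members, the shares were 1.51% and 0.985%. The longest run was 4 triplets, in Med22. The windows below hold the run in capitals.
Med22, CTG run from intron base 808: ggtttgctcCTGCTGCTGCTGcacagaagc
Wars, CTG run from intron base 438: gcctttgattCTGCTGCTGtggagtcaca
Pdcd4, CTG run from intron base 406: cccatgttggCTGCTGCTGtggaaatgct
Znrf1, CAG run from intron base 502: cacagtgtcaCAGCAGCAGgctactccct

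The introns were short for their genes. Their lengths ran from 26 to 6792 nt with a median of 333 nt and quartiles of 126 and 813 nt, against a median of 1034 nt (quartiles 329 and 3372, n = 2669) for the other annotated introns of the same genes. A retained form is annotated for 195 of the members, and all 15354 annotated introns with an annotated retained form had a median of 294 nt, close to that of the members. Median GC content was 53.8% in the members and 50.8% in that class. The 5′ splice sites scored lower against the usual base composition, with a median of 6.30 against 7.41, and the 3′ splice sites had medians of 8.28 and 8.32. These scores sum, over positions, the log2 ratio of each base's frequency in that class to an equal share of the bases, so that a higher score means a more usual site. GT and AG ended 189 of 195 introns (96.9%), GC and AG 5 (2.56%), and the Xbp1 intron was the remaining one.

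Most members lay at the 3′ end of their gene. By the annotation 116 lay in the coding region, 43 in the 5′ UTR, 33 in the 3′ UTR and 9 in noncoding transcripts, and for 8 the splice junction itself was not annotated. In 110 the intron was the last of its transcript. In 122 an annotated transcript holds the whole intron inside its last exon, and in 58 inside its first exon. For these, the reads counted as retained are also the reads of an annotated alternative end, and the counts cannot tell an unspliced molecule from one made with that end. Among 113 coding introns with sequence, retention brings a stop codon into frame in 79, and in 34 it does not. Exons of another gene overlapped 17 introns, 7 with a gene on the same strand and 12 on the opposite strand, and 29 introns overlapped another member. Tardbp held 5 members, the most of any gene.

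Retention was measured as PSI, the share of length-normalised counts that support the retained form, from 0 (always removed) to 1 (always kept). Counts of the retained form (inclusion counts) are reads inside the intron or across its ends, and skipping counts are reads that join the exons. The 198 introns with counts in all libraries had 18349 inclusion and 1682 skipping counts in CUG10 + vehicle, 12456 and 1634 in CUG300 + vehicle, and 20020 and 1550 in CUG300 + CWG-cPIP. The tables of all event types held 609546, 567697 and 560672 counts in the same order. Depth limited what could be read: 40 of 198 introns had under 5 counts in a library, 97 had at least 20 in every library and 35 at least 100.

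By PSI, counts of the retained form had the larger share for most introns with depth. For introns inside an annotated last exon, these counts may also come from the alternative end. Over the 97 introns with at least 20 counts in each library, median PSI was 0.811 in CUG10 + vehicle (quartiles 0.478 and 0.940), 0.767 in CUG300 + vehicle (0.324 and 0.938) and 0.801 in CUG300 + CWG-cPIP (0.476 and 0.968). PSI was above 0.5 for 71, 68 and 71 introns, above 0.9 for 38, 33 and 39, and below 0.1 for 7, 7 and 8. CUG300 + vehicle was the lowest of the libraries for 50 introns and the highest for 20. No like tally was made over all event types, which leaned the same way. Of those with depth, 42.1% were higher in CUG300 + vehicle than in CUG10 + vehicle, and 58.8% higher in CUG300 + CWG-cPIP than in CUG300 + vehicle. Over the 97 introns, the range over the libraries had a median of 0.117, was under 0.05 for 18 introns and reached 0.15 for 35. Introns that lie inside an annotated last exon had the higher levels, with medians of 0.876, 0.850 and 0.863 over 66 introns, against 0.507, 0.437 and 0.476 over the other 31. Medians of introns under 150 nt were 0.507, 0.534 and 0.508, those of introns from 150 to 500 nt 0.928, 0.890 and 0.937, and those of longer introns 0.819, 0.744 and 0.798.

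**Figure D1:**
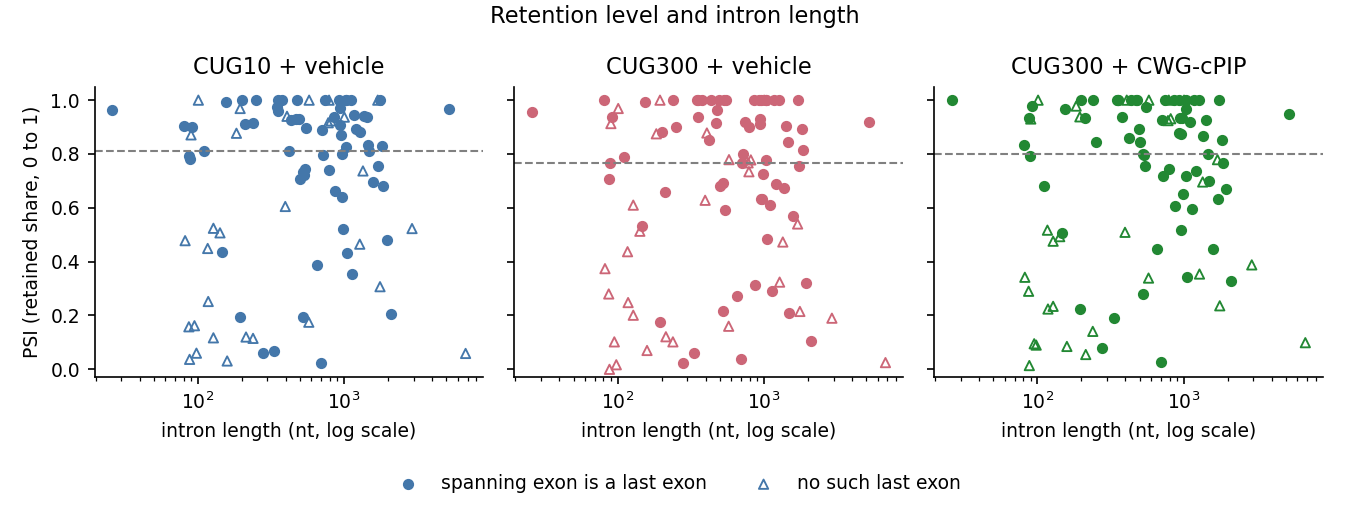
PSI (vertical axis, 0 to 1) of the 97 introns with at least 20 counts in each library against intron length in nt (log scale), 1 panel per library. Filled circles are the 66 introns inside an annotated last exon, open triangles the other 31, and the dashed line is the median, at 0.811, 0.767 and 0.801.

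The introns with most counts had PSI above 0.5 in each library. The intron of Ccdc85b was at 0.995, 0.993 and 0.968, and that of Wars, the tryptophanyl-tRNA synthetase, at 0.972, 0.929 and 1.0. The 3′ UTR intron of Gpm6b, a membrane proteolipid of neurons and glia, was at 0.835, 0.846 and 0.799, and the last intron of Sec14l1 at 0.680, 0.816 and 0.766. The 3′ UTR intron of Irak1, a kinase of interleukin-1 receptor signalling, was at 0.881, 1.0 and 1.0. The intervals of all of these overlapped between libraries. Inclusion counts moved more than PSI did: Gpm6b had 1162, 573 and 1822 inclusion counts beside 11, 5 and 22 skipping counts.

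At the other end, the introns of Ptpn2 and Caly had low PSI in every library. The short introns of Xbp1 and Ints3, given after them, had high PSI. The longest member, a 6792-nt coding intron of the tyrosine phosphatase Ptpn2 (chr18:67665875-67672666), had PSI 0.059 (0.038 to 0.097), 0.025 (0.015 to 0.041) and 0.099 (0.054 to 0.191) in the libraries in the same order. The 3′ UTR intron of Caly, which encodes the neuronal vesicle protein calcyon, was at 0.061 (0.046 to 0.078), 0.025 (0.017 to 0.036) and 0.079 (0.058 to 0.105). Both had their lowest level in CUG300 + vehicle, with intervals that did not reach those of CUG300 + CWG-cPIP. The Xbp1 intron was at 0.963 (0.813 to 0.999), 0.955 (0.848 to 0.994) and 1.0 (0.854 to 1.0), that is, 1, 2 and 0 spliced counts, and no spliced count among 31 allows a spliced share of counts, before length normalisation, of up to 9.68%. A 5′ UTR intron of Hspa5, the endoplasmic reticulum chaperone BiP, was at 0.478, 0.374 and 0.342, and an 81-nt intron of the Integrator subunit Ints3 at 0.905, 1.0 and 0.834.

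The 3 libraries were compared in pairs. An intron was called when each library of the pair had at least 20 counts, PSI differed by more than 0.15 and the 95% interval of the difference excluded 0. A call describes the counts of a pair of libraries and is no test of the treatments. CUG300 + vehicle enters a pair of the comparisons, so their values are not independent.

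Between CUG300 + vehicle and CUG10 + vehicle, which differ in repeat length, 4 of 96 introns with depth (4.17%) were called, all with lower retention in CUG300 + vehicle. Over all 5 event types 74 of 2526 events (2.93%) were called, 2.18% with the lower and 0.752% with the higher value. Of the 185 introns listed for this pair, 96 had the depth, and PSI was higher for 36 and lower for 60 of them (37.5% higher, against 42.1% of all event types). The median difference was -0.023, beside -0.008 for all event types. Fisher's exact test on the counts was two-sided and adjusted by the Benjamini-Hochberg method over the listed introns. By this test 1 intron passed (0.541%), that of Caly. Over all event types 0.255% passed, but with adjustment over all 5 types together, so the shares are not like for like. Without adjustment, 12 introns had p under 0.05 by the same exact test (6.49%, against 2.75% of all event types).

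The largest difference among the calls was in Qsox2, a sulfhydryl oxidase that helps form disulfide bonds in secreted proteins. Its last intron, 1480 nt long, had 90 inclusion and 1 skipping counts in CUG10 + vehicle, 45 and 8 in CUG300 + vehicle and 97 and 2 in CUG300 + CWG-cPIP, for PSI of 0.811 (0.429 to 0.994), 0.211 (0.111 to 0.397) and 0.698 (0.384 to 0.951). CUG300 + vehicle stood below both of the others, with a difference of -0.600 (-0.778 to -0.190) from CUG10 + vehicle. The intron of its relative Qsox1, chosen after its values were seen, had PSI of 0.663, 0.312 and 0.606, and its difference of -0.351 had an interval that reached 0 (-0.606 to 0.011).

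The other called introns all lay in 3′ UTRs. A 1703-nt intron of Crebzf, a leucine zipper cofactor of transcription (chr7:90445494-90447196), had 198 inclusion and no skipping counts in CUG10 + vehicle, which allows a skipping share of counts, before length normalisation, of up to 1.52%. It had 141 and 5 in CUG300 + vehicle and 169 and 2 in CUG300 + CWG-cPIP, for PSI of 1.0, 0.540 and 0.779 and a difference of -0.460 (-0.669 to -0.087). The other Crebzf introns were not called: that of 212 nt was at 0.912, 0.657 and 0.934, and that of 1047 nt at 0.432, 0.484 and 0.344. The 1111-nt intron of Znrf1, a ubiquitin ligase of neurons, had 169 and 0, 126 and 5, and 183 and 1 counts, for PSI of 1.0, 0.611 and 0.920 and a difference of -0.389 (-0.602 to -0.068). The 2922-nt intron of 2010111I01Rik (chr13:63298857-63301778), inside which the microRNA genes Mir27b, Mir23b, Mir3074-1 and Mir24-1 are annotated, had 133 and 3, 95 and 10, and 77 and 3 counts. Its PSI was 0.523, 0.190 and 0.388, and its difference -0.333 (-0.588 to -0.053). All 4 calls rest on 10 or fewer skipping counts in each library, and their adjusted p by Fisher's exact test ran from 0.138 for Qsox2 to 0.437 for 2010111I01Rik.

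The Caly intron passed the adjusted exact test without meeting the size threshold. Its counts were 70 inclusion and 228 skipping in CUG10 + vehicle, 32 and 260 in CUG300 + vehicle and 56 and 138 in CUG300 + CWG-cPIP. The difference was -0.035 (-0.054 to -0.018), with an adjusted p of 0.0143 by Fisher's exact test. Just outside the call rule was the 147-nt 3′ UTR intron of Hras, a small GTPase of growth signalling, with PSI of 0.436 and 0.534 and a difference of 0.098 (0.012 to 0.182), the opposite direction.

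**Figure D2:**
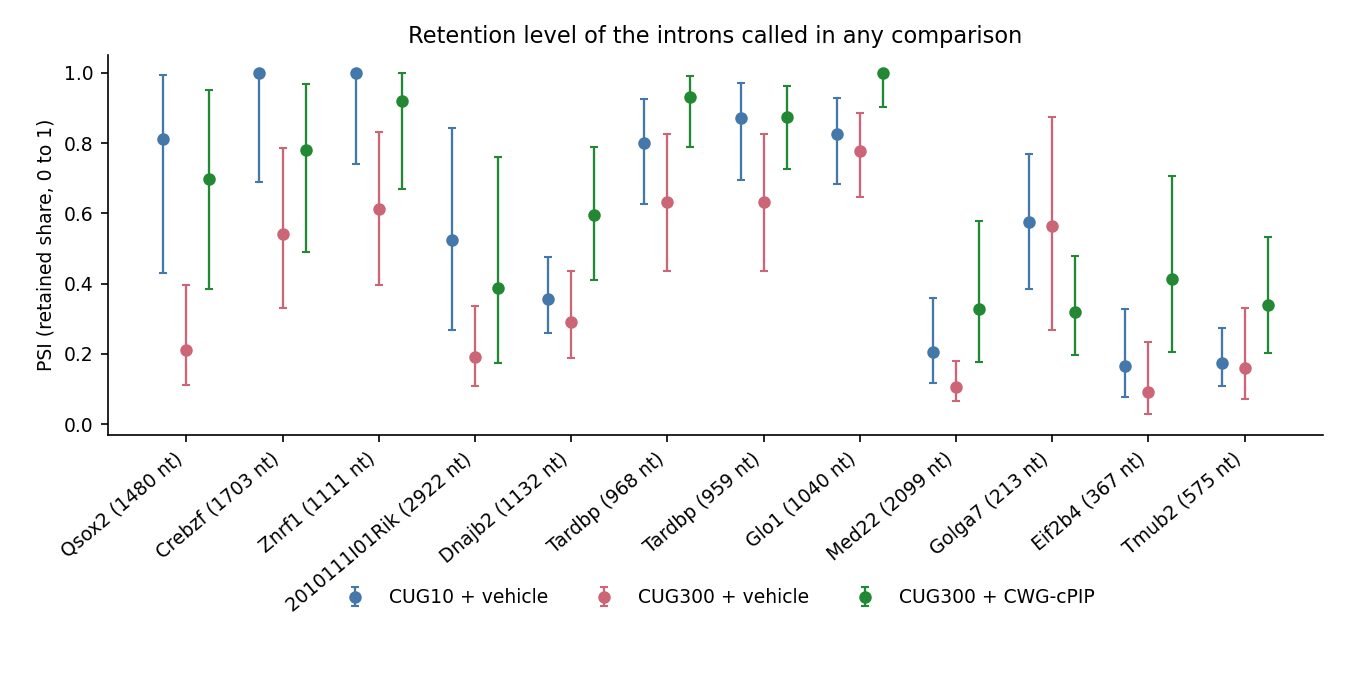
PSI (vertical axis, 0 to 1) in each library of the 12 introns called in any comparison, with 95% exact binomial intervals carried through the length normalisation. Qsox2, Crebzf, Znrf1 and 2010111I01Rik are lowest in CUG300 + vehicle, at 0.211, 0.540, 0.611 and 0.190, while Golga7 is lowest in CUG300 + CWG-cPIP, at 0.318.

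Summed inclusion counts differed more between libraries than summed skipping counts did. As CPM, counts scaled to the total of all event types in each library, the 97 introns with depth in each library summed to 28219 inclusion counts in CUG10 + vehicle, 20638 in CUG300 + vehicle and 33207 in CUG300 + CWG-cPIP, and to 2164, 2394 and 1994 skipping counts. For the first pair inclusion was lower for 74 of 96 introns while skipping was higher for 50 and lower for 46, and the summed ratios were 0.727 and 1.11. The like share over all event types was not computed, so lower CPM is not shown to be particular to retained introns. Inclusion sums were lowest in CUG300 + vehicle both for introns inside an annotated last exon (24051, 17730 and 28428) and for the others (4169, 2908 and 4778). Overlapping introns, such as those of Tardbp and Pja1, share reads. Sums and tallies over introns, here and throughout, therefore count some reads more than once.

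Markers of cell types differed between the same libraries. Summed over the events of marker genes, in CPM, 5 measured neuronal markers out of 8 were at 9642 in CUG10 + vehicle, 2980 in CUG300 + vehicle and 9961 in CUG300 + CWG-cPIP, with all 5 lower in CUG300 + vehicle than in CUG10 + vehicle. Microglial and immune markers (6 of 11 measured) were at 2835, 19940 and 4921, and all 6 were higher. Choroid plexus markers (2 of 6) were at 781, 71285 and 717, with Ttr at 171, 67703 and 112 and Enpp2 at 610, 3581 and 605. Ttr was thus most of the sum in CUG300 + vehicle only. Oligodendrocyte markers (4 of 6) were at 8770, 7317 and 9763. Of the oligodendrocyte markers Mag was higher in CUG300 + vehicle than in CUG10 + vehicle and the other 3 were lower. Astrocyte markers (2 of 6) were at 648, 1450 and 1234, with Gfap higher and Fgfr3 lower in CUG300 + vehicle than in either of the other libraries. Endothelial and mural markers (2 of 4) were at 47.6, 29.9 and 55.3, and no measured marker was at 0. Their part in the retention values was not tested, and in bulk tissue fewer cells of a type and less RNA per cell cannot be told apart. The comparison that does not use the CUG300 + vehicle library is the third, given last.

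**Figure D3:**
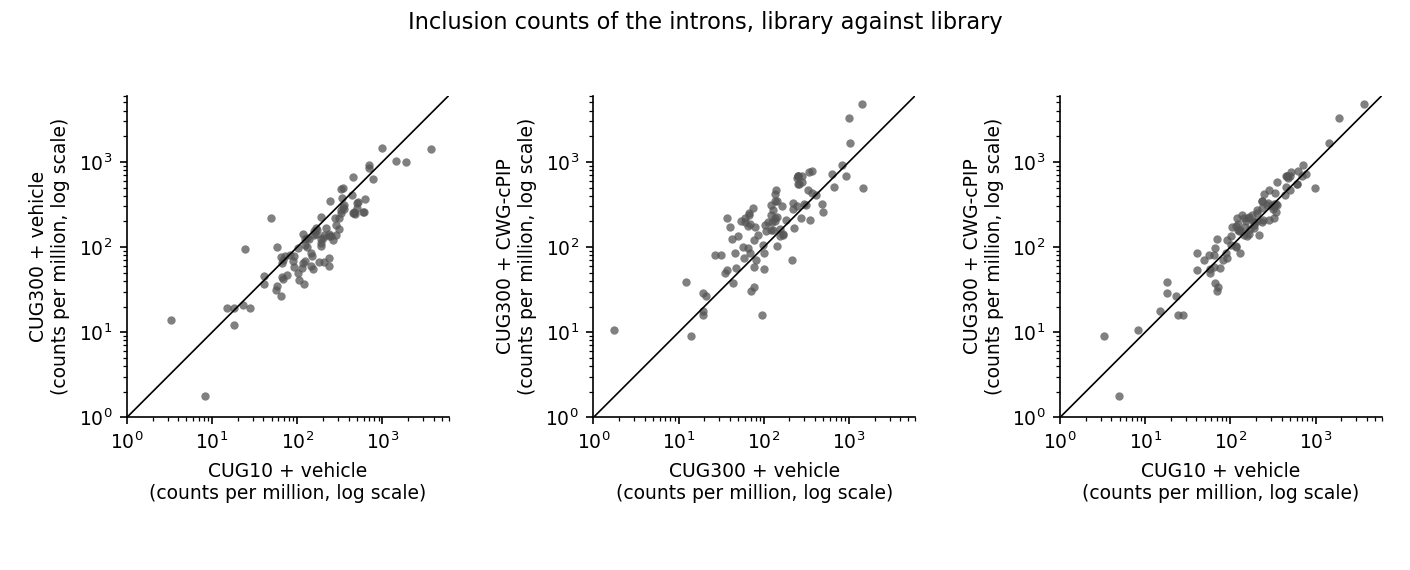
Inclusion counts as CPM of all event types (both axes log scale), library against library, for the introns with at least 20 counts in each library, 1 point per intron. The line marks equal values, and 1 intron with no inclusion count in CUG300 + vehicle is not drawn. In the left panel most points lie below the line, and in the middle panel most lie above it.

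Between CUG300 + CWG-cPIP and CUG300 + vehicle, which differ in the polyamide, 6 of 91 introns with depth (6.59%) were called, all with higher retention in CUG300 + CWG-cPIP. Over all event types 106 of 2514 (4.22%) were called, 3.14% with the higher and 1.07% with the lower value. The pair listed 177 introns. PSI was higher for 59 and lower for 31 of the 91 (64.8% higher, against 58.8% of all event types), and the median difference was 0.037, against 0.011. Inclusion CPM was higher for 66 of 91 introns, with summed ratios of 1.63 for inclusion and 0.835 for skipping. Here too no like share was computed over all event types. The adjusted exact test passed Caly and Ptpn2 (1.13%). Of all event types 0.419% passed, again with adjustment over all types together. By the exact test 14 introns had an unadjusted p under 0.05 (7.91%, against 3.58% of all event types). The calls had 17 or fewer skipping counts in each library, and adjusted p by Fisher's exact test from 0.0843 for Glo1 to 0.407 for the 959-nt Tardbp intron.

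The called introns besides those of Tardbp lay in Qsox2, Glo1, Dnajb2 and Med22. Qsox2 was higher by 0.487 (0.141 to 0.706). The 1040-nt 3′ UTR intron of Glo1, the glyoxalase that clears methylglyoxal, had 430 inclusion and 6 skipping counts in CUG10 + vehicle, 475 and 9 in CUG300 + vehicle, and 513 and 0 in CUG300 + CWG-cPIP, where no skipping count allows a skipping share of counts, before length normalisation, of up to 0.585%. Its PSI was 0.826 (0.684 to 0.929), 0.778 (0.647 to 0.885) and 1.0 (0.902 to 1.0), and the CUG300 + CWG-cPIP library stood above both of the others, by 0.222 (0.085 to 0.353) over CUG300 + vehicle.

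The 1132-nt last intron of Dnajb2, a neuronal co-chaperone of HSP70, had 188 and 21, 93 and 14, and 168 and 7 counts, for PSI of 0.355 (0.259 to 0.476), 0.290 (0.188 to 0.436) and 0.596 (0.411 to 0.788). It was also highest in CUG300 + CWG-cPIP, by 0.306 (0.084 to 0.494) over CUG300 + vehicle. The 2099-nt last intron of Med22, a Mediator subunit, had PSI of 0.206 (0.118 to 0.360), 0.107 (0.065 to 0.180) and 0.328 (0.177 to 0.578), on 76 and 10, 60 and 17, and 86 and 6 counts. Its difference was 0.221 (0.059 to 0.419). Retention of the Qsox2, Dnajb2 and Med22 introns brings a stop codon into frame.

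For the introns that passed the adjusted exact test, Caly differed by 0.053 (0.031 to 0.080), with an adjusted p of 1.79e-04 by Fisher's exact test, and Ptpn2 by 0.074 (0.028 to 0.148), with an adjusted p of 0.023 by the same exact test. Both differences were under the size threshold. Aph1a, a subunit of gamma-secretase, was just outside the rule, with PSI of 0.060 and 0.190 and a difference of 0.131 (0.027 to 0.25). The introns called in the first comparison other than Qsox2 were not called here: the differences were 0.239 (-0.111 to 0.496) for Crebzf, 0.308 (0.000 to 0.531) for Znrf1 and 0.198 (-0.046 to 0.477) for 2010111I01Rik.

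Tardbp encodes TDP-43, an RNA-binding protein that binds its own 3′ end and lowers its own mRNA. Its 5 introns all lie in the last exon of the transcript with the longest coding sequence. The 968-nt intron had 280 inclusion and 5 skipping counts in CUG10 + vehicle, 145 and 6 in CUG300 + vehicle and 386 and 2 in CUG300 + CWG-cPIP, for PSI of 0.799 (0.627 to 0.925), 0.632 (0.435 to 0.826) and 0.932 (0.790 to 0.991). The 959-nt intron was at 0.870, 0.632 and 0.873 on 3, 6 and 4 skipping counts. These were called, with differences of 0.300 (0.086 to 0.501) and 0.241 (0.024 to 0.450) between CUG300 + CWG-cPIP and CUG300 + vehicle.

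The other Tardbp introns did not show this order. The 941-nt intron, which ends at the same 3′ splice site, was at 0.909, 0.912 and 0.933 on 2, 1 and 2 skipping counts. The 1038-nt intron, whose junction is not annotated, was at 1.0, 1.0 and 0.966. The separate 721-nt intron downstream in the 3′ UTR (chr4:148616845-148617565) was at 0.796 (0.678 to 0.891), 0.800 (0.695 to 0.887) and 0.720 (0.602 to 0.826), on 10, 12 and 14 skipping counts. Its inclusion counts were 420, 517 and 387, highest in CUG300 + vehicle, whereas the 968-nt intron had its fewest there. The upstream introns overlap and share nearly all of their inclusion reads, so they are not separate measurements, and together with the annotated alternative ends their reads cannot be assigned to single transcripts.

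**Figure D4:**
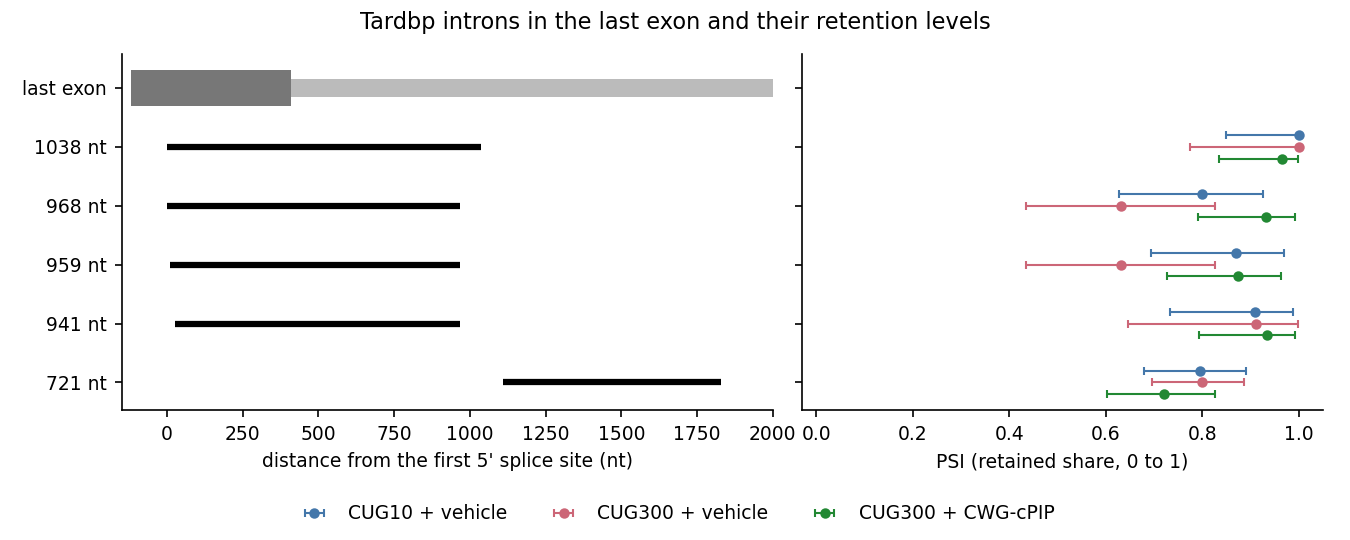
Left, the 5 Tardbp introns as black bars by distance in nt from the first 5′ splice site, under the last exon of the transcript with the longest coding sequence (dark, coding part; light, 3′ UTR, drawn up to the end of the axis). Right, PSI (0 to 1) of each intron in the 3 libraries with 95% intervals; the 968-nt and 959-nt introns are lowest in CUG300 + vehicle, at 0.632, and the 721-nt intron is lowest in CUG300 + CWG-cPIP, at 0.720.

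Between CUG300 + CWG-cPIP and CUG10 + vehicle, which differ in repeat length and polyamide together, 5 of 110 introns with depth (4.55%) were called, 4 with higher (3.64%) and 1 with lower (0.909%) retention in CUG300 + CWG-cPIP. Over all event types 75 of 3096 (2.42%) were called, 1.39% with the higher and 1.03% with the lower value. The pair listed 188 introns. PSI was higher for 67 and lower for 42 of the 110 (60.9% higher, against 50.5% of all event types), with a median difference of 0.023 against 0.001. Summed inclusion was 1.19 times and summed skipping 0.983 times that of CUG10 + vehicle. Fisher's exact test passed no intron after adjustment (0.172% of all event types passed, adjusted over all types together). By the same test 7 introns had an unadjusted p under 0.05 (3.72%, against 2.25% of all event types).

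Glo1 (0.174, 0.041 to 0.315) and Dnajb2 (0.241, 0.029 to 0.427) were called here too, with the same CUG300 + CWG-cPIP counts. The first intron of Eif2b4, a subunit of the exchange factor that recycles the translation initiation factor eIF2 (chr5:31192626-31192992), had 13 inclusion and 11 skipping counts in CUG10 + vehicle, 6 and 10 in CUG300 + vehicle and 21 and 5 in CUG300 + CWG-cPIP. Its PSI was 0.165, 0.091 and 0.413, and the difference from CUG10 + vehicle was 0.248 (0.007 to 0.492). An overlapping 222-nt Eif2b4 intron with the same 5′ splice site was at 1.0, 1.0 and 0.714, on 9, 5 and 11 counts. Its order was the opposite, at too few counts for a call. The first intron of Tmub2, in the 5′ UTR (chr11:102285089-102285663), was at 0.175, 0.160 and 0.339, a difference of 0.164 (0.006 to 0.338). Both intervals came close to 0.

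Golga7, a partner of the palmitoyltransferase that modifies Ras proteins, was the intron with the opposite direction. Its 213-nt 5′ UTR intron (chr8:23256807-23257019), which overlaps an exon annotated to another locus, had 42 and 8 counts in CUG10 + vehicle, 15 and 3 in CUG300 + vehicle and 29 and 16 in CUG300 + CWG-cPIP. PSI was 0.575 (0.386 to 0.769), 0.563 (0.267 to 0.874) and 0.318 (0.197 to 0.479), and the difference was -0.257 (-0.457 to -0.026). Adjusted p by Fisher's exact test lay between 0.578 and 1.0 for the calls of this comparison. Hspa5 was just outside the rule, at -0.136 (-0.268 to -0.001).

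By function, the splicing and RNA processing list had the most members, 13 introns in 9 genes, with 5 introns in Tardbp alone. The upstream Tardbp introns share nearly all of their inclusion reads, so the tallies of this list do not count separate measurements. Of the introns of the list with depth, 4 were higher and 7 lower in CUG300 + vehicle than in CUG10 + vehicle (median difference -0.016), with none called. In CUG300 + CWG-cPIP against CUG300 + vehicle 9 were higher and 2 lower (median 0.046, beside 0.037 for all introns), and the Tardbp pair was called. Against CUG10 + vehicle 7 were higher and 5 lower (median 0.013). The 3′ UTR intron of Celf2, a CUG-binding splicing regulator, had 305 and 1, 161 and 4, and 379 and 3 counts, for PSI of 0.940 (0.736 to 0.998), 0.674 (0.442 to 0.885) and 0.867 (0.688 to 0.969). The library order was that of Qsox2, but the interval of the first difference, -0.266, reached 0 (-0.502 to 0.001).

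The other splicing genes gave wide intervals. Clk1, a kinase of SR proteins whose transcript is known to keep introns in the nucleus, had an intron at 0.737 (0.486 to 0.932), 0.473 (0.251 to 0.772) and 0.696 (0.468 to 0.895). The intron of Snrnp70, the U1 snRNP 70K protein, was at 0.937, 1.0 and 1.0. That of the SR protein Srsf1 was at 0.193 (0.128 to 0.280), 0.177 (0.098 to 0.293) and 0.223 (0.156 to 0.309). Nxf1, the mRNA export receptor, was at 0.307, 0.215 and 0.236, Hnrnpm at 0.449, 0.437 and 0.517, and Fxr1, a relative of FMRP, at 0.158, 0.280 and 0.290. Luc7l was the member without depth, with 10, 7 and 31 counts. No intron of these genes outside Tardbp was called in any comparison.

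**Figure D5:**
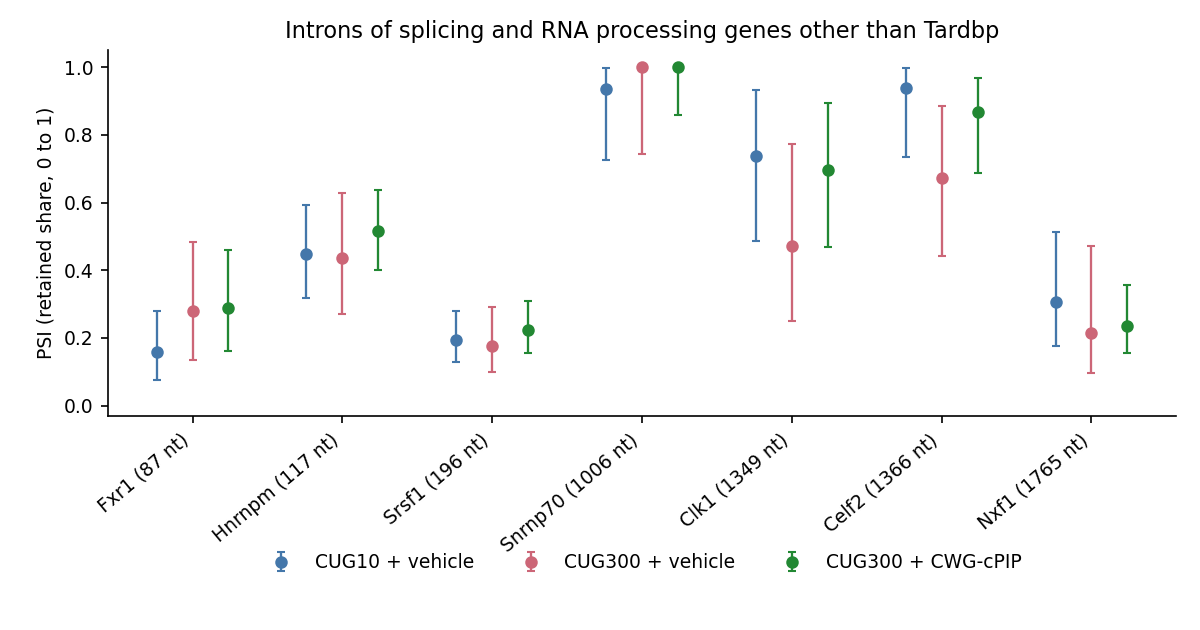
PSI (vertical axis, 0 to 1) of the introns with at least 20 counts in each library in splicing and RNA processing genes other than Tardbp, ordered by length, with 95% exact binomial intervals carried through the length normalisation. Intervals of the libraries overlap for every gene. Celf2, Clk1, Nxf1, Srsf1 and Hnrnpm have their lowest PSI in CUG300 + vehicle, at 0.674, 0.473, 0.215, 0.177 and 0.437. Fxr1 and Snrnp70 have theirs in CUG10 + vehicle, at 0.158 and 0.937.

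The remaining lists were small. Of 8 introns in chromatin and transcription genes 4 had depth, and 1 was called in each of the first and second comparisons, the Crebzf and Med22 introns given above. Among 7 introns of mitochondrial, ribosomal and translation genes, the Eif2b4 intron was the call, and 2 were higher and 3 lower with depth in both the first and second comparisons. In this list the first intron of Rps27a, a ribosomal protein fused to ubiquitin, was at 0.162 (0.128 to 0.202), 0.102 (0.077 to 0.132) and 0.095 (0.069 to 0.126) on at least 249 counts. Its differences of -0.060 and -0.067 from CUG10 + vehicle were under the size threshold. The longer of the overlapping introns of Rpl31 was at 0.120, 0.121 and 0.055, and the shorter, of 142 nt, at 0.507, 0.513 and 0.493.

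No intron of the synapse and channel, immune, ubiquitin or trafficking lists was called. These lists are small, so the lack of calls says little about them. With depth in CUG300 + vehicle against CUG10 + vehicle were 1 of 3 synapse and channel introns and 1 of 3 immune introns. In CUG300 + CWG-cPIP against CUG300 + vehicle, these numbers were 1 and 2. In CUG300 + CWG-cPIP against CUG10 + vehicle, they were 3 and 0. In the synapse and channel list, the sodium channel subunit Scn3b had a 3′ UTR intron at 0.354, 0.162 and 0.335. This intron had 31, 10 and 36 counts. A coding intron of the synaptobrevin Vamp1 was at 0.014, 0.037 and 0.028 on 46, 15 and 108 counts. The immune list held introns of Tnfaip8, Il1rap and Parp10. Tnfaip8 was at 1.0, 0.918 and 1.0 on 30, 124 and 39 counts, with 0, 1 and 0 skipping counts. Il1rap was at 0.692, 0.795 and 0.874 on 12, 20 and 35 counts, with 1 skipping count in each library. Parp10 had 3 or fewer counts in each library. The 4 ubiquitin and 4 trafficking introns had 2 and 4 members with depth in the first comparison, and 167 of the 209 introns belonged to no list.

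By position, the calls of the first and second comparisons were all in introns of 500 nt or more. In that class the median difference was -0.049 over 52 introns in the first comparison, 0.078 over 50 in the second and 0.022 over 56 in the third. For introns under 150 nt the medians were -0.010, 0.014 and -0.003. In long introns the interior takes most of the inclusion reads and few reads cross the spliced junction, so PSI of a long, mostly retained intron turns on few skipping counts. Introns of the 3′ UTR had medians of -0.036, 0.057 and -0.019, coding introns -0.016, 0.030 and 0.035, and 5′ UTR introns -0.009, 0.016 and 0.008.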

How the data were processed

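The retained introns and gene lists were chosen with earlier results of these data known. For the splicing analysis the authors sequenced 1 library per group. By the methods it was made with a directional kit from extracted total RNA. Whether polyadenylated RNA was selected is not stated. The submitters' processing notes name Trim Galore 0.6.6, STAR 2.7.9a, RSEM 1.3.3, DESeq2 1.36.0 (not used here) and build mm10. By the methods rMATS compared the libraries in pairs. The deposited tables hold counts on junctions and inside the intron, the authors' PSI as a fraction, and lengths of the forms. A read length of 75 nt follows from these lengths, while the methods give another length for splicing libraries. The authors' p-value, FDR and PSI difference columns were not used.

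PSI was recomputed from the deposited counts and equalled the deposited fraction within 4.97e-04. Library intervals are 95% Clopper-Pearson and difference intervals 95% Newcombe, both carried through the length normalisation (scipy 1.17.1, pandas 2.3.3). Fisher's exact test was two-sided with Benjamini-Hochberg adjustment within a table. It compares reads of a pair of libraries, reads without molecular identifiers are not independent molecules, and intervals and the floor of 3 counts cover counting error only. The calling step was tested on simulated counts with planted differences and counting error only, which cannot show how often single mice differ. Positions and sequences came from GENCODE M21.

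Named introns were, by rule, up to 8 called per pair, the 8 with most counts, called introns of listed genes, up to 5 introns of the splicing, immune and synapse lists, the 3 shortest and 3 longest with depth, and those of Qsox2, Crebzf and Tardbp. Others (Caly, Qsox1, Hras, Aph1a, Clk1, Srsf1, Nxf1, Hnrnpm, Fxr1, Luc7l, Rps27a, Rpl31, Scn3b, Vamp1, Il1rap, Parp10, Pdcd4 and the 222-nt intron of Eif2b4) were chosen after their values were seen. 1 of the introns named by the rule is not reported here.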

Additional observations from a re-analysis of the deposited data

How the results depend on the processing

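No paired analysis was possible because each group has 1 library, and no replicate could be left out. Other settings kept the sign of each median difference. The count of calls was equal under 12 of 30 settings, within 1.5 times under 17 (these included) and further off under 13. For CUG300 + vehicle against CUG10 + vehicle, 4 introns were called, and 10 with no count minimum. The exact test call, adjusted over the retained introns or over all 5 event types, with the size threshold gave 0 in each comparison. For CUG300 + CWG-cPIP against CUG300 + vehicle, 6 became 9 at a count minimum of 10, 15 with none and 3 at a size threshold of 0.25. For CUG300 + CWG-cPIP against CUG10 + vehicle, 5 became 7 at a count minimum of 10, 3 at 50, 8 with none, 8 at a size threshold of 0.1 and 1 at 0.25. The median difference of the first comparison, -0.023, was -0.035 at a count minimum of 50, -0.015 with none and -0.009 as a share of inclusion counts without length normalisation. That of the second, 0.037, was 0.013 without length normalisation. That of the third, 0.023, was 0.010 at a count minimum of 50, 0.013 over events in all 3 tables and 0.005 without length normalisation. In the exact test setting the calls end because the adjusted p of each called intron was above 0.05. For the other settings the cause was not tested. Of the 15 calls, 8 rest on 3 or fewer skipping counts in a library, so depth at the spliced junction limits these values.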
